A study of Mus musculus with 9 samples.

Results

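The genes described here carry the route by which nuclear genes set the amount of mitochondria and keep the mitochondrial genome (mtDNA) copied and transcribed. They are 10 genes chosen by symbol: the coactivators Ppargc1a and Ppargc1b, the nuclear factors Esrra, Nrf1 and Gabpa, the mtDNA transcription genes Tfam, Tfb2m and Polrmt, and the mtDNA replication genes Polg and Twnk. All 10 were found among the 47729 gene identifiers in the count files, and all 10 were among the 17671 genes with enough counts to be tested. The rule was a list of symbols and used no measured value, though it was drawn up with earlier results of these data known.

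RNA was sequenced from midbrain dissected at postnatal day 180, in 3 libraries per genotype and 9 in all, each a pool of 3 mice according to the methods of the study. Every mouse was C57/Bl6 and carried Pitx3-Cre/+ and Rosa-lox-stop-lox-Yfp, so the controls also had Cre and the reporter. The groups differed in Dot1l, which encodes the histone H3 lysine 79 methyltransferase: Dot1l(+/+) had no floxed allele, Dot1l(fl/+) had 1 and Dot1l(fl/fl) had 2. Cre came from the Pitx3 locus, which is active in midbrain dopamine neurons, so the other cells of the dissected tissue kept intact Dot1l. The question put to these genes was whether their transcripts differed with the number of floxed Dot1l alleles. In such tissue, fewer cells of a type and less RNA per cell cannot be told apart.

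PGC-1alpha, the product of Ppargc1a, and PGC-1beta, the product of Ppargc1b, bind no DNA themselves but join transcription factors and raise the output of their targets. Among those factors are the estrogen-related receptor alpha (Esrra), nuclear respiratory factor 1 (Nrf1) and GABP, whose DNA-binding subunit is encoded by Gabpa, and their targets include respiratory chain subunits and Tfam. Inside the organelle, TFAM packs and bends mtDNA, the RNA polymerase POLRMT starts transcription together with TFB2M, and polymerase gamma (Polg) and the helicase Twinkle (Twnk) copy the genome. In brain, Ppargc1a is known for high levels in fast-spiking parvalbumin neurons and for protecting dopamine neurons under oxidative stress.

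Because the nuclear factors of this route act on the promoters of other members, the members' promoters were searched for the letters those factors are known to bind. RefSeq (GRCm38.p6) gave windows of 250 bases before and 50 after the start for 9 members, in 11 windows. GCGCATGC (nuclear respiratory factor 1), CCGGAAGT (GABP), AAGGTCA (the core site of the estrogen-related receptors), TGACGTCA (the cyclic AMP response element) and AAGATGGC (YY1) were looked for on both strands. They stood in 2.71%, 3.89%, 4.72%, 1.79% and 2.75% of all 32851 windows, respectively. Matches were found in 7 members and no window held more than 1. They are printed 5′ to 3′ on the strand of the gene, with the match in capitals and 11 bases on either side, to show which member carries which motif:
Esrra: ccccctgttttGCATGCGCaggccggcccc
Tfb2m: ctaggtcgttcGCATGCGCcattcgtaatg
Polrmt: agagtatttctGCGCATGCtctcttgccgc
Tfam: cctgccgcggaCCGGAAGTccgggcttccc
Polg: gaggacctcacCCGGAAGTccctctgcacc
Twnk upper window: agggtattcacAAGGTCActgcacctagc
Twnk lower window: actaaccggtgACTTCCGGttccggggttg
Gabpa: gctaagactccGCCATCTTtcctacacttt
The first 3 hold the nuclear respiratory factor 1 motif, on the minus strand of the gene in Esrra (chr19:6921824-6921853) and Tfb2m (chr1:179546245-179546274) and on its plus strand in Polrmt (chr10:79746696-79746725). The GABP motif stood in Tfam (chr10:71238073-71238102), in Polg (chr7:79466293-79466322) and, reversed, in the window at the downstream start of Twnk (chr19:45006436-45006465). The upstream start of Twnk had the estrogen-related receptor site (chr19:45005529-45005557), and Gabpa had the YY1 motif, reversed (chr16:84835046-84835075). By the GENCODE M21 annotation, the stretches of Esrra and Polrmt lie in no gene, and those of Tfam, Tfb2m and Polg overlap their 5′ untranslated regions. The upstream stretch of Twnk overlaps an untranslated region of Mrpl43 on the other strand. The downstream stretch of Twnk lies in an intron of Twnk and meets that region of Mrpl43 only at its edge, outside the match. The stretch of Gabpa lies in an intron of Gabpa and overlaps an exon of Atp5j on the other strand. A match is a description of the letters and no proof of a bound site. The share of all windows with any of the 5 motifs was not computed, so 7 members with a match is no measure of enrichment. Windows with a match held 7 to 32 CpG dinucleotides, beside a median of 7 over all windows. The Ppargc1a window held 5 and the windows of Nrf1 held 43 and 2.

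The windows of Ppargc1a and Nrf1 held none of the 5 motifs. The 150 bases before the start of Ppargc1a (chr5:51567726-51567875, minus strand) are shown because Ppargc1a was the member with the lowest p of the 30 member comparisons, and they stand without capitals because no motif was found:
Ppargc1a: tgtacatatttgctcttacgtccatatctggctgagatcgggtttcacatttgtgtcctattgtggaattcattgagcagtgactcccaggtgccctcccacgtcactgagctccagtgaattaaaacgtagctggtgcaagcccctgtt
No match says only that these letters are not in this window.

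Before the members, Dot1l itself was read in every library. Dot1l gave 85.2, 80.2 and 85.1 CPM in Dot1l(+/+), next to Dot1l(fl/+) values of 84.2, 60.6 and 75.6 and Dot1l(fl/fl) values of 82.1, 73.9 and 82.9, where CPM stands for counts-per-million, over the tested genes and after TMM scaling. The Dot1l(fl/+) libraries spread from 60.6 to 84.2 and overlapped the controls, with a log2 difference of -0.19 ± 0.094 (standard error, unadjusted p = 0.0690), and Dot1l(fl/fl) differed from Dot1l(+/+) by -0.07 ± 0.094 (unadjusted p = 0.473). The floxed part is exon 5, and counts over the whole gene in tissue where most cells lack Cre do not measure its loss. Library totals ran from 16422135 to 28403218 counts, the lowest in Dot1l(fl/fl) replicate 3. The markers of dopamine neurons were all above 0 in every library, though Pitx3, the locus of Cre, was under 1 CPM in each. The summed level of these 11 markers was only 590 to 836 CPM, against 10508 to 12055 CPM for 8 oligodendrocyte genes. By genotype the sum was 747 to 836 CPM in Dot1l(+/+), then 601 to 752 CPM with 1 floxed allele and 590 to 620 CPM with 2. Dot1l(fl/+) replicates 1 and 3 stood apart by hypothalamic peptides: Pmch, named after its values were seen, was at 99.4 and 49.6 CPM in those libraries and between 0.472 and 7.24 CPM in the other 7. The 5 thalamus markers summed to 556 and 583 CPM in those libraries, to 380 CPM in Dot1l(fl/+) replicate 2 and to 450 to 511 CPM in the other 6. Of them, 1 of 5 was higher in Dot1l(fl/+) than in Dot1l(+/+) at an unadjusted p under 0.05, beside 8.39% of all tested genes in either direction. The part of these markers in the member values was not tested. Replicate 2 of Dot1l(fl/+) was the most distant from its own group over all genes, so the differences of Ppargc1a, Ppargc1b, Esrra, Nrf1 and Gabpa are also given with some of these libraries left out.

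Set beside each other per kb of exon, Ppargc1a was the most abundant member and Nrf1 the least. Ppargc1a stood at 12.2 ± 0.76 CPM per kb of exon (SD over 9 libraries), above 75.3% of all tested genes. Esrra followed at 11.5 ± 1.0 and Tfam at 10.4 ± 0.42 CPM per kb. Below a gap that held in all 9 libraries came Gabpa (7.25 ± 0.50), Polg (6.83 ± 0.21) and Polrmt (6.27 ± 0.43). Twnk (4.16 ± 0.11) stood alone, with no overlap with its neighbours, over Tfb2m (2.54 ± 0.20), Ppargc1b (2.34 ± 0.25) and Nrf1 (1.79 ± 0.14), all in CPM per kb. Neighbours within Ppargc1a, Esrra and Tfam, within Gabpa, Polg and Polrmt, and within Tfb2m, Ppargc1b and Nrf1 overlapped in their ranges over the 9 libraries. The coactivators were far from each other, with Ppargc1a 5.26-fold above Ppargc1b on average and between 4.19 and 6.39-fold in single libraries. The order depends on the length used: over the longest transcript instead of all exons, Esrra led at 20.3 and Ppargc1b was lowest at 2.56 CPM per kb, and Nrf1, at 4.54, stood next to Twnk at 4.79.

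**Figure D1:**
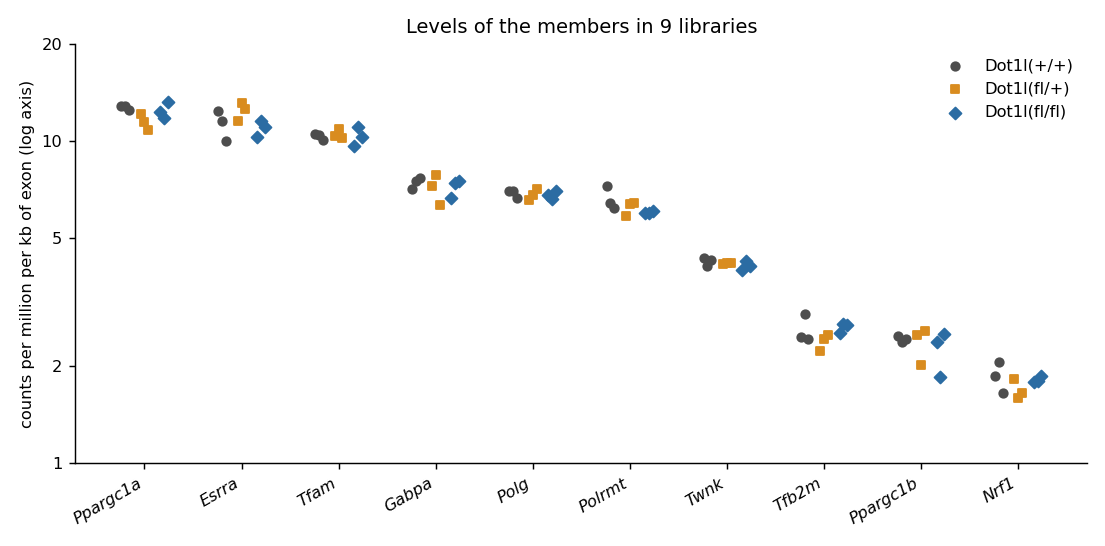
Levels of the 10 members in CPM per kb of exon (log axis), with 1 point per library and the genotypes by colour and marker. Members are ordered by their mean, from Ppargc1a at 12.2 to Nrf1 at 1.79, and within each member the 3 genotypes lie close together.

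Across the genotypes, no member passed an adjusted p under 0.05 in any of the 3 comparisons (edgeR quasi-likelihood test, 0 of 10 each, against 0% of all tested genes). DESeq2 also called 0 of 10 members in each. At an unadjusted p under 0.05, 1 member was lower in Dot1l(fl/+) than in Dot1l(+/+) (Ppargc1a), against 8.39% of all tested genes in either direction and 4.09% lower. None was past that threshold in Dot1l(fl/fl) against Dot1l(+/+), where 3.93% of tested genes were, and 1 (Esrra) was lower in Dot1l(fl/fl) than in Dot1l(fl/+), against 6.48% in either direction and 2.87% lower. A count of 1 in 10 is near these shares of all genes. Estimates lay below 0 for 8 of 10 members in Dot1l(fl/+) and for 9 of 10 when Dot1l(fl/fl) was set against Dot1l(+/+), with medians of -0.05 and -0.04 on the log2 scale beside all-gene medians of 0.00 in both. These comparisons share the control libraries. The first median was -0.03 without Dot1l(+/+) replicate 1 and -0.08 without Dot1l(fl/+) replicate 3, and the second was -0.02 without Dot1l(+/+) replicate 2 or Dot1l(fl/fl) replicate 1. The count below 0 in the second comparison was 6 of 10 without Dot1l(fl/fl) replicate 1 or replicate 2. It was 10 of 10 without Dot1l(+/+) replicate 3. The 95% intervals of the members reached from -0.37 to 0.31 log2 in Dot1l(fl/+) against Dot1l(+/+), and from -0.41 to 0.27 in Dot1l(fl/fl) against Dot1l(+/+). Larger differences than those lay outside the interval of every member.

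**Figure D2:**
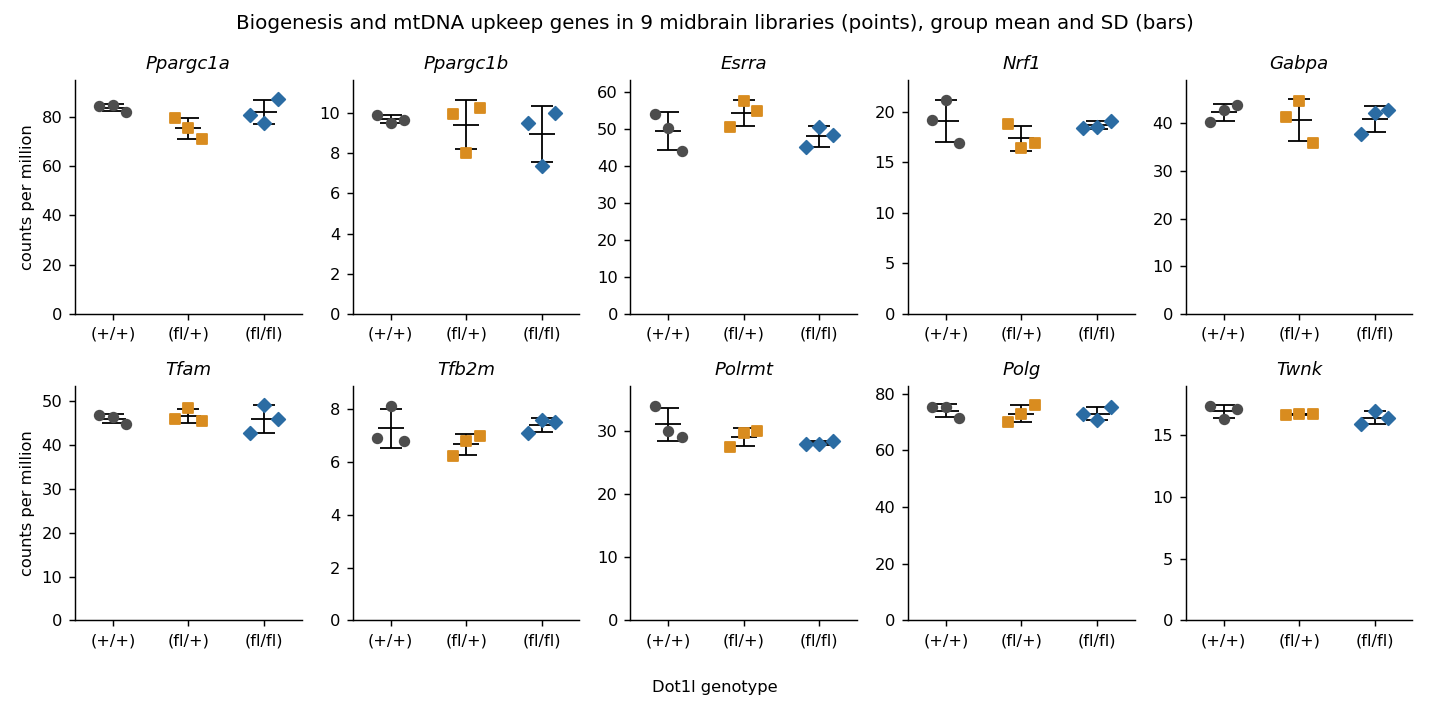
Counts-per-million (CPM) of each member in the 9 libraries (points, axes from 0), with the group mean and SD as black bars. The Dot1l(fl/+) points of Ppargc1a lie between 71.1 and 79.6, under the control points at 82.1 to 84.8, and most other members overlap between genotypes.

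**Figure D3:**
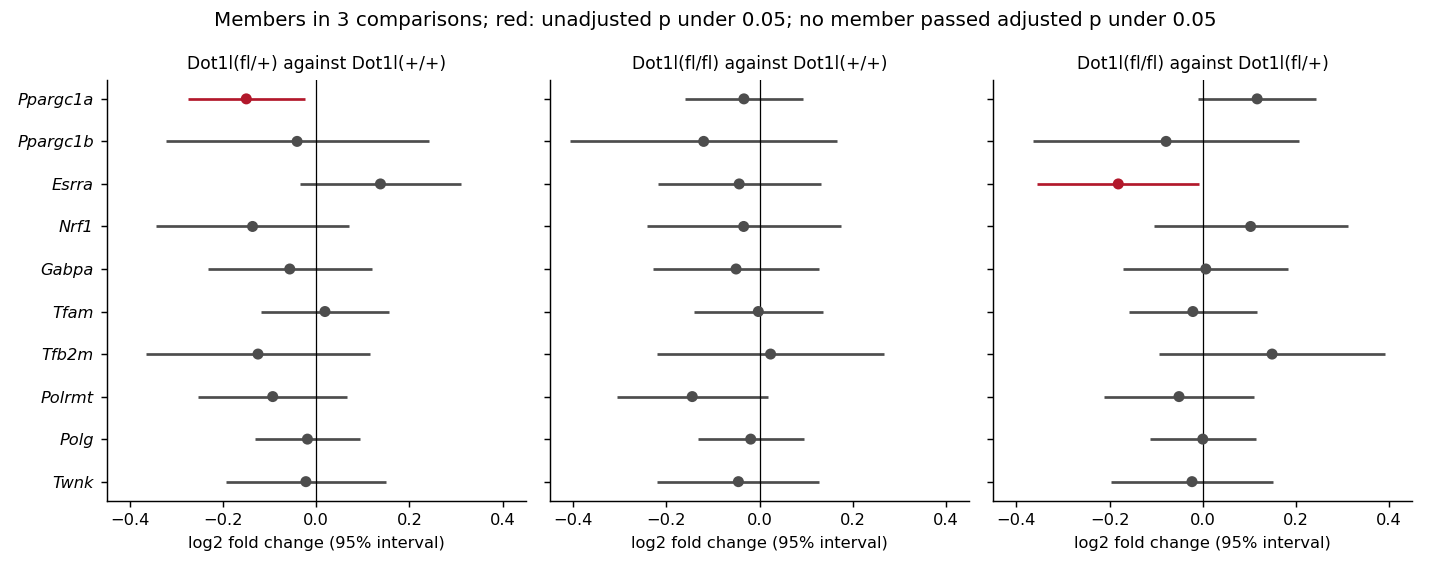
Log2 fold changes of the 10 members with 95% intervals in the 3 comparisons, where red marks an unadjusted p under 0.05. The red points are Ppargc1a at -0.15 in the first panel and Esrra at -0.18 in the third.

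Of the coactivators, Ppargc1a (chr5:51454250-51567726, minus strand, GRCm38) was lower in each Dot1l(fl/+) library than in each control, while in Dot1l(fl/fl) it overlapped both other groups. Ppargc1a gave 84.3, 84.8 and 82.1 CPM in Dot1l(+/+), next to Dot1l(fl/+) values of 79.6, 75.6 and 71.1 and Dot1l(fl/fl) values of 80.9, 77.6 and 87.3. All 3 Dot1l(fl/+) values lay under all 3 control values, as was the case for 6.47% of all tested genes (13.3% in either direction), and Dot1l(fl/fl) replicate 3 was the highest library of all. The difference of Dot1l(fl/+) from Dot1l(+/+) was -0.15 ± 0.058 on the log2 scale (95% interval -0.28 to -0.02; unadjusted p = 0.0229; adjusted p = 0.541, edgeR quasi-likelihood test), a change of -9.88%. Dot1l(fl/fl) differed from Dot1l(+/+) by -0.03 ± 0.059 (unadjusted p = 0.578) and from Dot1l(fl/+) by 0.12 ± 0.059 (unadjusted p = 0.0674). The former was 0.01 without Dot1l(fl/fl) replicate 2 and -0.08 without Dot1l(fl/fl) replicate 3. The latter had an unadjusted p under 0.05 when Dot1l(fl/+) replicate 1 (0.16; unadjusted p = 0.0280) or Dot1l(fl/fl) replicate 2 (0.15; unadjusted p = 0.0385) was left out, and was 0.08 without Dot1l(fl/+) replicate 3, 0.07 without Dot1l(fl/fl) replicate 3 and 0.05 with the length and GC offset. Once gene length and GC content were fitted as an offset, the difference between Dot1l(fl/+) and Dot1l(+/+) was -0.07 ± 0.047 and its unadjusted p was 0.142. Leaving out 1 library also took the unadjusted p past 0.05 for Dot1l(+/+) replicate 1 (0.0590), Dot1l(+/+) replicate 2 (0.0737) and Dot1l(fl/+) replicate 3 (0.0996), at differences between -0.15 and -0.11.

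Markers of neurons and glia were read in the same libraries. Without the Dot1l(fl/+) libraries with hypothalamic peptides, the Ppargc1a difference was as large, at -0.15 ± 0.072 (unadjusted p = 0.0651, with 1 library left in the group). Among dopamine neuron markers, 4 of 11 were lower in Dot1l(fl/+) at an unadjusted p under 0.05 and 9 of 11 in Dot1l(fl/fl), with medians of -0.20 and -0.49 on the log2 scale, and of 8 oligodendrocyte markers 3 were higher in Dot1l(fl/+). The summed level of 8 microglia markers was 351 to 368 CPM in Dot1l(+/+), then 352 to 420 CPM with 1 floxed allele and 385 to 414 CPM with 2, with 1 and 2 of 8 higher at that threshold. The part of these markers in the Ppargc1a values was not tested. Parvalbumin neuron markers, which bear on Ppargc1a as background, did not stand apart: 0 of 7 passed that unadjusted threshold in any comparison, and their summed level was 2450 to 2566 CPM in Dot1l(+/+), then 2464 to 2514 CPM with 1 floxed allele and 2381 to 2549 CPM with 2. Pvalb gave 43.8, 50.1 and 48.4 CPM in Dot1l(+/+), next to Dot1l(fl/+) values of 44.7, 59.3 and 46.8 and Dot1l(fl/fl) values of 51.9, 51.5 and 44.1, and the groups overlapped.

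Ppargc1b, on chromosome 18, was counted with 165 to 269 reads per library and was the most variable member. Ppargc1b gave 9.88, 9.49 and 9.66 CPM in Dot1l(+/+), next to Dot1l(fl/+) values of 9.95, 8.02 and 10.3 and Dot1l(fl/fl) values of 9.48, 7.35 and 10.01. One library of Dot1l(fl/+) and 1 of Dot1l(fl/fl), both replicate 2, lay under the other 7, and the groups overlapped. Against Dot1l(+/+) it differed by -0.04 ± 0.13 with 1 floxed allele and by -0.12 ± 0.13 with 2, with intervals of -0.32 to 0.24 and -0.41 to 0.17. Both estimates turned on a single library: the first was 0.06 ± 0.13 once Dot1l(fl/+) replicate 2 was left out, and the second 0.01 ± 0.13 once Dot1l(fl/fl) replicate 2 was. With Dot1l(fl/+) replicates 1 and 3 left out together, the first was -0.27 ± 0.17.

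**Figure D4:**
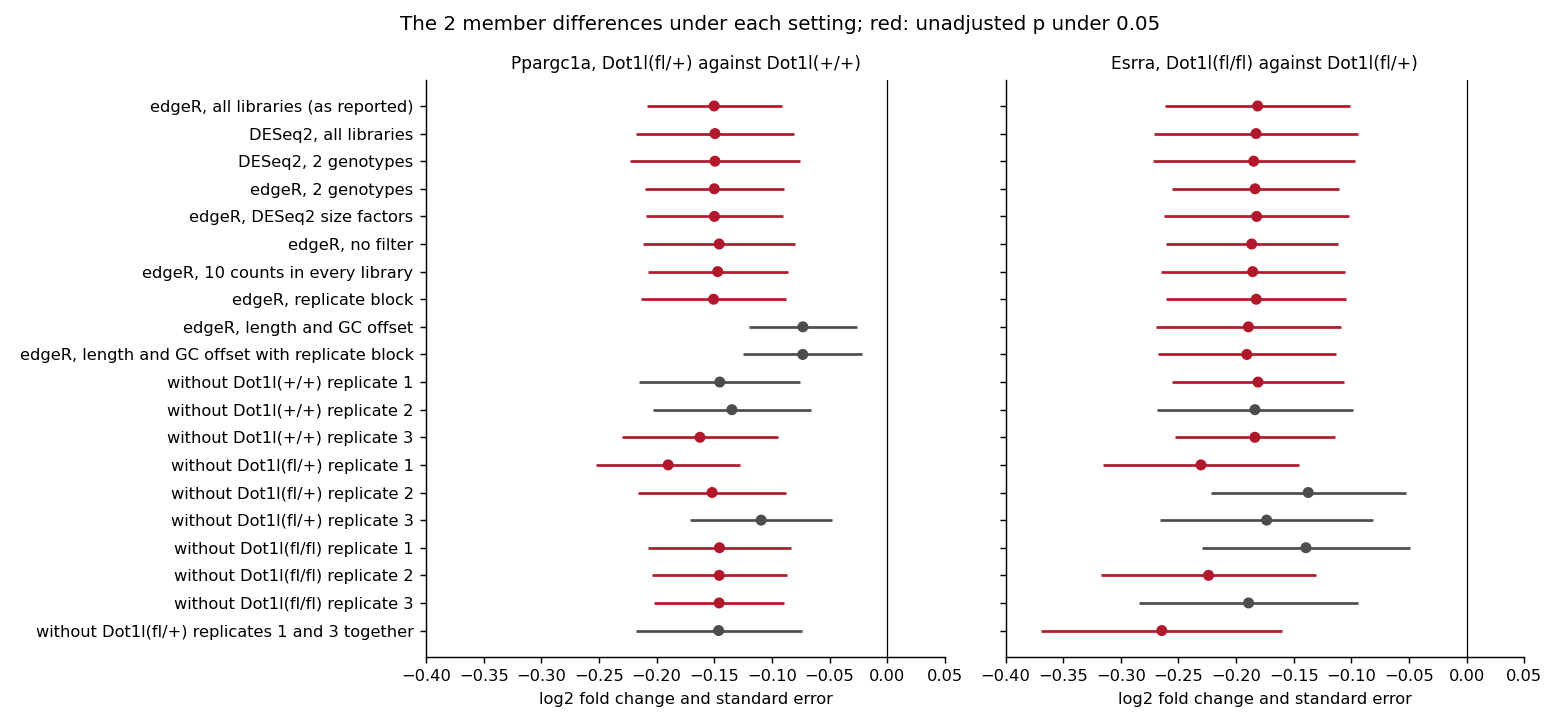
Log2 fold change and standard error of Ppargc1a in Dot1l(fl/+) against Dot1l(+/+) and of Esrra in Dot1l(fl/fl) against Dot1l(fl/+), under the reported fit and 19 other settings, where red marks an unadjusted p under 0.05. Every estimate lies below 0, and the length and GC offset brings Ppargc1a to -0.07 while Esrra stays at -0.19.

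The nuclear factors had estimates of both signs. Esrra (chr19:6910977-6921813, minus strand), an orphan nuclear receptor that PGC-1alpha works through, had its highest group mean in Dot1l(fl/+). Esrra gave 54.1, 50.4 and 44.0 CPM in Dot1l(+/+), next to Dot1l(fl/+) values of 50.6, 57.6 and 55.0 and Dot1l(fl/fl) values of 45.1, 50.5 and 48.4. All Dot1l(fl/fl) libraries were at or under 50.5 CPM and all Dot1l(fl/+) libraries at or above 50.6, so that replicate 2 of Dot1l(fl/fl) and replicate 1 of Dot1l(fl/+) nearly met, and the controls, at 44.0 to 54.1, overlapped both groups. Such a separation in this direction was seen in 5.14% of all tested genes. Dot1l(fl/fl) differed from Dot1l(fl/+) by -0.18 ± 0.081 (95% interval -0.35 to -0.01; unadjusted p = 0.0418; adjusted p = 0.762, edgeR quasi-likelihood test). Against Dot1l(+/+) the differences were 0.14 ± 0.080 in Dot1l(fl/+) (unadjusted p = 0.109) and -0.04 ± 0.081 in Dot1l(fl/fl) (unadjusted p = 0.600). The Dot1l(fl/+) difference was 0.06 without Dot1l(+/+) replicate 3, and it had an unadjusted p under 0.05 when Dot1l(+/+) replicate 1 (0.21; unadjusted p = 0.0295) or Dot1l(fl/+) replicate 1 (0.19; unadjusted p = 0.0475) was left out. The Dot1l(fl/fl) difference was -0.12 without Dot1l(+/+) replicate 3 and 0.03 without Dot1l(+/+) replicate 1. The unadjusted p of Dot1l(fl/fl) against Dot1l(fl/+) was above 0.05 without Dot1l(+/+) replicate 2 (0.0509), Dot1l(fl/+) replicate 2 (0.127), Dot1l(fl/+) replicate 3 (0.0833), Dot1l(fl/fl) replicate 1 (0.147) or Dot1l(fl/fl) replicate 3 (0.0695). Without Dot1l(fl/+) replicates 1 and 3 together it was -0.26 ± 0.10 (unadjusted p = 0.0262). In the same comparison, 5 of 8 oligodendrocyte markers and 5 of 11 dopamine neuron markers were lower in Dot1l(fl/fl) at an unadjusted p under 0.05. Of all tested genes, 6.48% were past that threshold in either direction and 2.87% were lower. The part of these markers in the Esrra values was not tested. Esrra shares 73 exon bases with Trmt112 on the opposite strand, and whether reads were counted by strand is not given in the sources used here. Trmt112 was at 1.74 to 2.79 CPM and also lower in Dot1l(fl/fl) than in Dot1l(fl/+), by -0.43 ± 0.19 (unadjusted p = 0.0421).

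Nrf1 (chr6:30047988-30153458, plus strand), the factor whose motif stood in the promoters of Esrra, Tfb2m and Polrmt printed above, overlapped in all 3 groups. Nrf1 gave 19.2, 21.1 and 16.9 CPM in Dot1l(+/+), next to Dot1l(fl/+) values of 18.8, 16.4 and 16.9 and Dot1l(fl/fl) values of 18.4, 18.5 and 19.1. Its widest estimate was -0.14 ± 0.096 in Dot1l(fl/+) against Dot1l(+/+) (unadjusted p = 0.178), and the 3 Dot1l(fl/fl) libraries lay between 18.4 and 19.1 CPM. The Dot1l(fl/+) estimate was -0.05 ± 0.10 without Dot1l(+/+) replicate 2 and -0.22 ± 0.13 without Dot1l(fl/+) replicates 1 and 3, and it had an unadjusted p under 0.05 without Dot1l(+/+) replicate 3 (-0.22 ± 0.099; unadjusted p = 0.0493). Gabpa (chr16:84834925-84863779, plus strand), the DNA-binding part of GABP, had the lowest library of all in Dot1l(fl/+) replicate 3 and the highest in Dot1l(fl/+) replicate 2. Gabpa gave 40.2, 42.7 and 43.7 CPM in Dot1l(+/+), next to Dot1l(fl/+) values of 41.2, 44.6 and 35.9 and Dot1l(fl/fl) values of 37.7, 42.1 and 42.6. Estimates against Dot1l(+/+) were -0.06 ± 0.082 with 1 floxed allele and -0.05 ± 0.082 with 2. The first turned to 0.08 ± 0.091 without Dot1l(fl/+) replicates 1 and 3, and was -0.13 ± 0.079 without Dot1l(fl/+) replicate 2, while the second was 0.01 without Dot1l(fl/fl) replicate 1. Gabpa and Atp5j, an ATP synthase subunit, start 700 bases apart on opposite strands and share 397 exon bases, so their reads are uncertain in that stretch. Atp5j was at 41.5 to 46.4 CPM in Dot1l(+/+) and 49.0 to 59.4 in Dot1l(fl/+), a difference of 0.31 ± 0.12 (unadjusted p = 0.0201).

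Of the mtDNA transcription genes, Tfam (chr10:71225464-71238280, minus strand), the abundant packaging protein and transcription factor of mtDNA, was closest to even. Tfam gave 46.7, 46.3 and 44.8 CPM in Dot1l(+/+), next to Dot1l(fl/+) values of 45.9, 48.3 and 45.3 and Dot1l(fl/fl) values of 42.7, 49.0 and 45.7. The group means lay within 10.3 and 10.5 CPM per kb. The 95% interval against Dot1l(+/+) was -0.12 to 0.16 log2 in Dot1l(fl/+) and -0.14 to 0.14 in Dot1l(fl/fl). A change of more than 1.114-fold either way lay outside both intervals. Polrmt (chr10:79736123-79746581, minus strand), the mitochondrial RNA polymerase, was lower in all 3 Dot1l(fl/fl) libraries than in all 3 controls, as were 5.25% of all tested genes (10.3% in either direction). Polrmt gave 34.0, 30.1 and 29.1 CPM in Dot1l(+/+), next to Dot1l(fl/+) values of 27.4, 29.7 and 30.1 and Dot1l(fl/fl) values of 27.9, 27.9 and 28.4. The Dot1l(fl/fl) libraries lay between 27.9 and 28.4 CPM, the nearest control was at 29.1 CPM, and replicate 1 of Dot1l(+/+) stood highest. Dot1l(fl/fl) differed from Dot1l(+/+) by -0.14 ± 0.075 (95% interval -0.31 to 0.02; unadjusted p = 0.0765; adjusted p = 0.999, edgeR quasi-likelihood test). Without that highest control the difference was -0.07 and without Dot1l(+/+) replicate 3 it was -0.19 ± 0.082 (unadjusted p = 0.0390). Dot1l(fl/+) differed from Dot1l(+/+) by -0.09 ± 0.074 in Polrmt (unadjusted p = 0.231, edgeR quasi-likelihood test), and by -0.02 without Dot1l(+/+) replicate 1.

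Tfb2m (chr1:179528055-179546267, minus strand), which opens the mtDNA promoter for the polymerase, had the fewest reads of the members, 124 to 192 per library. Tfb2m gave 6.90, 8.12 and 6.80 CPM in Dot1l(+/+), next to Dot1l(fl/+) values of 6.23, 6.78 and 6.98 and Dot1l(fl/fl) values of 7.08, 7.59 and 7.52. Each Dot1l(fl/fl) library was above each Dot1l(fl/+) library, as in 5.98% of all tested genes (11.1% in either direction), by 0.15 ± 0.11 (unadjusted p = 0.209), and the controls overlapped both groups. Against Dot1l(+/+), Tfb2m differed by -0.13 ± 0.11 in Dot1l(fl/+) (unadjusted p = 0.284) and by 0.02 ± 0.11 in Dot1l(fl/fl) (unadjusted p = 0.837, edgeR quasi-likelihood test). Its start lies 103 bases from that of Cnst, which is read in the other direction and shares no exon base with it.

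The replication genes were the steadiest members. Polg (chr7:79446231-79466362, minus strand), the catalytic subunit of polymerase gamma, stayed between 70.2 and 76.0 CPM in all 9 libraries. Polg gave 75.2, 75.4 and 71.4 CPM in Dot1l(+/+), next to Dot1l(fl/+) values of 70.2, 72.8 and 76.0 and Dot1l(fl/fl) values of 73.0, 70.8 and 75.3. Its 3 estimates were -0.02 ± 0.053, -0.02 ± 0.053 and 0.00 ± 0.053, and the widest interval, of Dot1l(fl/fl) against Dot1l(+/+), was -0.13 to 0.10. Twnk (chr19:45005663-45012762, plus strand), the replicative helicase, stayed between 15.9 and 17.4 CPM. Twnk gave 17.4, 16.4 and 17.1 CPM in Dot1l(+/+), next to Dot1l(fl/+) values of 16.7, 16.7 and 16.7 and Dot1l(fl/fl) values of 15.9, 17.0 and 16.4. The 3 Dot1l(fl/+) libraries lay side by side and inside the range of both other groups. Its estimates were -0.02 ± 0.080, -0.05 ± 0.081 and -0.02 ± 0.080. With any 1 library left out, the 3 estimates of Polg ran from -0.05 to 0.03 and changed sign, and those of Twnk ran from -0.07 to -0.0021. Polg shares 921 exon bases with Fanci and Twnk shares 507 with Mrpl43, each on the opposite strand, so reads there are uncertain.

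The members differed in how far they varied within a genotype. The SD of log2 CPM around the genotype means was 0.038 for Twnk and 0.049 for Polg, smaller than in all but 2.10% and 6.14% of tested genes, and 0.066 for Tfam and 0.070 for Ppargc1a. At its mean count, sampling of reads alone gives an SD of about 0.072 for Twnk and 0.11 for Tfb2m, where 0.038 and 0.099 were measured, so at this depth no spread beyond counting was detectable for these genes. Ppargc1b had the widest spread, 0.18 against 0.096 from counting, followed by Esrra at 0.11 against 0.041 and Gabpa at 0.11 against 0.046. With genotype means removed, the members did not follow one another as a group: the median Pearson r of the 45 member pairs was 0.08 over 9 libraries, 27 pairs were above 0, and these points share library, mouse pool and depth. The closest pair was Esrra with Polrmt (r = 0.80), then Esrra with Tfam (r = 0.70), and the most opposed was Ppargc1b with Tfam (r = -0.77). To Ppargc1a, Nrf1 (r = 0.51), Gabpa (r = 0.42) and Ppargc1b (r = 0.40) were the nearest members, and Twnk (r = -0.24) the farthest. Among all tested genes, the 5 nearest to Ppargc1a by the same measure were Dido1, Gm14399, Epb41, Dpagt1 and Dnah7c (r = 0.97 to 1.00), and the 5 most opposed were Moxd1, Tmem38a, Gm8069, Tex261 and Lrrc57 (r = -0.99 to -0.96). With 9 libraries and 17671 genes such values are a description only.

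Around the members, 118 tested genes of 6 lists were read in the same fit: other regulators of biogenesis, other mtDNA transcription and RNA genes, other replication and repair genes, nucleotide supply, nucleoid proteins, and nuclear targets of the route. None passed an adjusted p under 0.05 in any comparison (edgeR quasi-likelihood test). In Dot1l(fl/+) against Dot1l(+/+), 5 were higher and 6 lower at an unadjusted p under 0.05, and in Dot1l(fl/fl) against Dot1l(+/+), 0 were higher and 2 lower, against 8.39% and 3.93% of all tested genes.

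Among the 26 other regulators, 19 estimates were below 0 in Dot1l(fl/+) against Dot1l(+/+), with a median of -0.08 (-0.02 with the length and GC offset, -0.05 without Dot1l(fl/+) replicate 3 and -0.04 when replicate 1 was left out as well). At the unadjusted threshold 2 of the 26 were lower, beside 8.39% of all tested genes in either direction and 4.09% lower. Gabpb2, which encodes a partner subunit of Gabpa in GABP, was at 37.4 to 47.4 CPM in Dot1l(fl/+) and 47.4 to 48.1 in Dot1l(+/+), a difference of -0.20 ± 0.087 (unadjusted p = 0.0348). Esrrg, a relative of Esrra, was at 81.0 to 105 CPM in Dot1l(fl/+) and 105 to 108 in Dot1l(+/+), a difference of -0.17 ± 0.076 (unadjusted p = 0.0400), with the lowest value in Dot1l(fl/+) replicate 3, as for Ppargc1a. In Dot1l(fl/fl) the member of this list past the threshold was Hcfc1, a cofactor that binds coactivators and GABP, at 126 to 134 CPM against 140 to 149 in Dot1l(+/+) (-0.14 ± 0.048; unadjusted p = 0.0116).

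Of 22 other genes of mtDNA transcription and mitochondrial RNA, 1 was lower in each comparison with the controls. Mterf1a, a transcription termination factor with a near-identical copy, Mterf1b, so that its reads are uncertain, differed by -0.43 ± 0.16 in Dot1l(fl/+) (unadjusted p = 0.0174, 62 to 98 reads per library in these groups). Fastkd1, a mitochondrial RNA-binding protein, was at 24.0 to 26.2 CPM in Dot1l(fl/fl) and 27.5 to 29.3 in Dot1l(+/+) (-0.16 ± 0.068; unadjusted p = 0.0338). Of 20 replication and repair genes, Exog, a mitochondrial repair nuclease, was higher in Dot1l(fl/+), at 26.2 to 27.2 CPM against 23.4 to 24.2 (0.17 ± 0.073; unadjusted p = 0.0397).

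Of 20 nucleotide supply genes, 2 were higher and 2 lower in Dot1l(fl/+) at the unadjusted threshold, beside 8.39% of all tested genes in either direction. Suclg1, a succinyl-CoA ligase subunit bound up with mitochondrial nucleotide salvage, had the lowest p of these lists: it was at 93.1 to 101 CPM in Dot1l(fl/+) and 79.6 to 89.1 in Dot1l(+/+), with Dot1l(fl/fl) between at 87.9 to 92.5, and Dot1l(fl/+) differed from Dot1l(+/+) by 0.21 ± 0.055 (unadjusted p = 0.00230; adjusted p = 0.541, edgeR quasi-likelihood test). Slc25a4, the adenine nucleotide carrier of the inner membrane, was higher as well (0.15 ± 0.062; unadjusted p = 0.0275). Rrm2b, the ribonucleotide reductase subunit that supplies dNTPs outside S phase, was lower in Dot1l(fl/+) (-0.20 ± 0.078; unadjusted p = 0.0252) and lower there than in Dot1l(fl/fl), at 44.3 to 53.7 against 55.2 to 58.0 CPM. Among 10 nucleoid proteins Phb, the prohibitin of the inner membrane, was lower in Dot1l(fl/+), at 19.9 to 20.7 CPM against 23.0 to 24.0 (-0.21 ± 0.084; unadjusted p = 0.0262).

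Nuclear targets of the route had estimates mostly opposite in sign to that of Ppargc1a in Dot1l(fl/+): 16 of 20 estimates were above 0, with a median of 0.08 beside an all-gene median of 0.00. At the unadjusted threshold 2 of 20 were higher, near the 8.39% of all tested genes past it in either direction. Cox4i1, a cytochrome c oxidase subunit, was at 295, 390 and 349 CPM in Dot1l(fl/+) and 267 to 294 in Dot1l(+/+) (0.27 ± 0.093; unadjusted p = 0.0106), and Atp5o, an ATP synthase subunit, at 65.3, 77.8 and 75.2 CPM against 63.1 to 67.9 (0.16 ± 0.065; unadjusted p = 0.0296). Both were highest in Dot1l(fl/+) replicate 2, without which the median of the list was 0.04, and with the length and GC offset it was 0.05. In Dot1l(fl/fl) against Dot1l(+/+), 14 of 20 were above 0, with a median of 0.04 and none past the threshold, and the median was 0.02 without Dot1l(fl/fl) replicate 2 or without Dot1l(+/+) replicate 3.

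**Figure D5:**
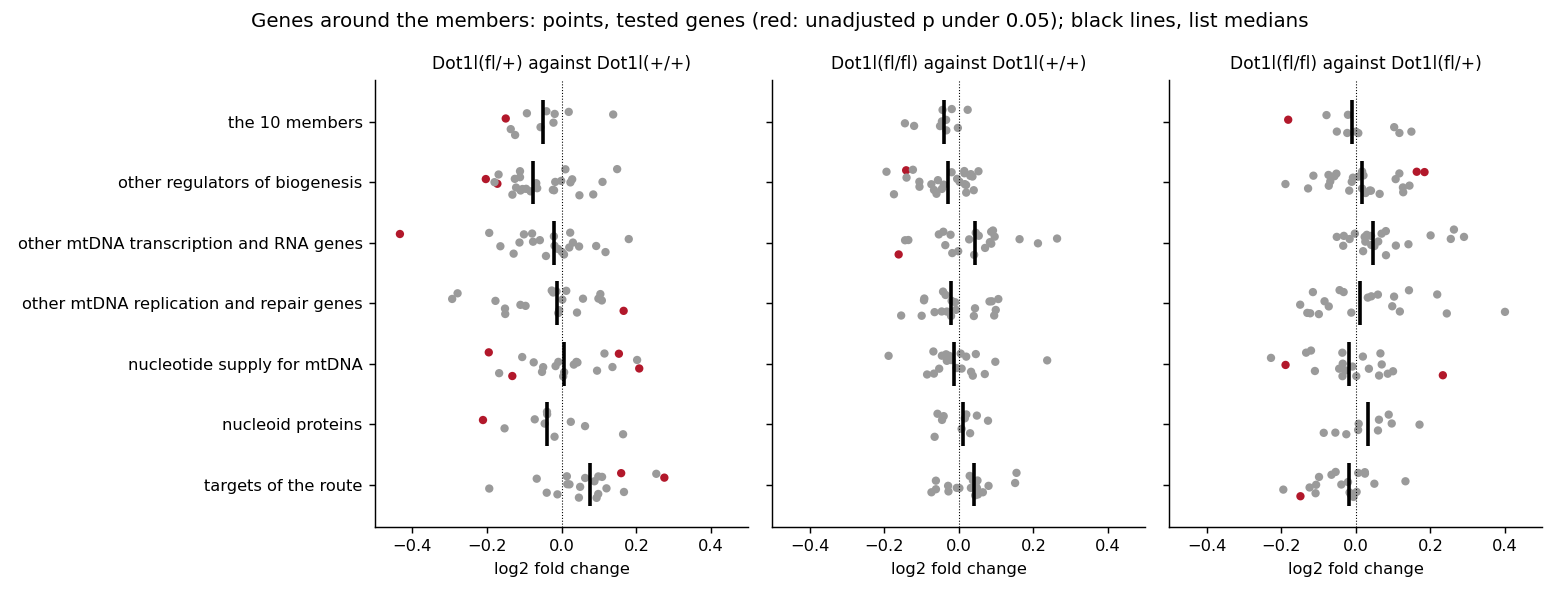
Log2 fold changes of the members and of 6 lists around them in the 3 comparisons, with 1 point per tested gene (red, unadjusted p under 0.05) and a black line at each median. In Dot1l(fl/+) against Dot1l(+/+), the median of the other regulators lies at -0.08 and that of the targets at 0.08.

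The transcripts of mtDNA itself, which the members make and maintain, took 3.35 ± 0.30% of counts in Dot1l(+/+), then 3.22 ± 0.37% with 1 floxed allele and 3.60 ± 0.21% with 2 (protein-coding genes, mean ± SD, n = 3 each). The differences from Dot1l(+/+) had p = 0.8 and 0.5 by a two-sided exact permutation test, whose smallest p with 3 against 3 is 0.1. Of the 13 genes, 6 (mt-Nd3, mt-Nd4l, mt-Co2, mt-Co3, mt-Atp6 and mt-Atp8) had 0 to 15 reads per library and were not tested, so the share holds almost no reads of them, and the cause of these low counts was not tested. Of the 7 tested, which apart from mt-Nd6 on the light strand are cut from shared precursor transcripts, all 7 estimates were above 0 in Dot1l(fl/fl) against Dot1l(+/+) and 2 in Dot1l(fl/+), and none passed the unadjusted threshold there. The median of the 7 in Dot1l(fl/fl) against Dot1l(+/+) was 0.11, but 0.02 without Dot1l(+/+) replicate 1, 0.04 without Dot1l(fl/fl) replicate 1 and 0.17 without Dot1l(+/+) replicate 3. In Dot1l(fl/+) against Dot1l(+/+) the direction turned on single libraries: the count above 0 was 0 of 7 without Dot1l(fl/+) replicate 2 or Dot1l(+/+) replicate 1, 4 of 7 without Dot1l(fl/+) replicate 3 or Dot1l(+/+) replicate 3, and 6 of 7 without Dot1l(fl/+) replicates 1 and 3 together. Against Dot1l(fl/+), 4 of the 7 were higher in Dot1l(fl/fl) at an unadjusted p under 0.05, beside 6.48% of all tested genes in either direction, with mt-Nd5, a subunit of complex I, at the lowest p of the 7 with a difference of 0.25 ± 0.082 (unadjusted p = 0.0103; adjusted p = 0.712, edgeR quasi-likelihood test), and the share of counts gave p = 0.3 for this pair of groups by the exact permutation test. The Dot1l(fl/+) libraries with hypothalamic peptides had the lower shares of their group, 3.15 and 2.89% against 3.61%. Without them the median of the 7 in Dot1l(fl/fl) against Dot1l(fl/+) was 0.02 instead of 0.19, with 4 of 7 above 0, and without Dot1l(fl/+) replicate 3 alone it was 0.11. Named here after their values were seen, these mtDNA genes were outside the rule for named genes.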

How the data were processed

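Total RNA of dissected midbrain was made into directional Illumina libraries. Per the labels, processing named bcl2fastq 2.17, Trimmomatic 0.30, DESeq2 1.10.1 and build GRCm38.p4; the aligner, the counter, its annotation and its strand setting are not given in the sources used here. The authors deposited raw counts per Ensembl gene for each library, which were the values used, and tables of their own DESeq2 comparisons (means, fold changes, errors and p-values), which were not used.

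Genes were filtered with filterByExpr, scaled by TMM and tested with the edgeR 4.0.16 quasi-likelihood test on all 9 libraries together, the model holding genotype alone (R 4.3.3), with Benjamini-Hochberg adjustment over 17671 genes. The common biological coefficient of variation was 8.81% and TMM factors were 0.988 to 1.01. The procedure was tested on simulated data first. CPM used the TMM-scaled counts of tested genes, and levels between genes were divided by the union of exons in GENCODE M21, where 47310 identifiers had a gene. Alternatives were DESeq2 1.42.0, fits of 2 genotypes, other size factors and filters, a block for the replicate number, a length and GC offset, and each library left out. Library pairs of a genotype differed by more than sampling noise (chi-square per degree of freedom 4.47 to 16.6). The labels do not say which mice went into which pool, so p-values measure the spread between these pools.

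Members, lists and alternatives were chosen with earlier results of these data known. Named are the members, Dot1l, Pvalb, up to 3 genes per list with the lowest unadjusted p under 0.05 against controls, and 5 genes on either side by r to Ppargc1a. Pmch, Trmt112 and Atp5j, and the genes in the other observations that are not members, were named after their values were seen. Of 132 list entries 131 matched; Prorp was not matched. Precision is limited by 3 pools per genotype and, for Tfb2m and Ppargc1b, by reads.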

Additional observations from a re-analysis of the deposited data

How the results depend on the processing

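Under 19 alternatives, 0 of 10 members passed an adjusted p under 0.05 in any comparison, DESeq2 included. Of 570 member estimates under alternatives, 45 had the opposite sign, none of them past an unadjusted p of 0.05. Counts of all genes called moved from 0: in Dot1l(fl/+) against Dot1l(+/+), Dot1l(fl/fl) against Dot1l(+/+) and Dot1l(fl/fl) against Dot1l(fl/+) they were 7, 3 and 14 with DESeq2 on all libraries, 42, 8 and 8 with DESeq2 on 2 genotypes, and 251, 118 and 164 with edgeR and no filter. With edgeR on 2 genotypes they were 1 and 4 in the comparisons with Dot1l(+/+) and 0 in the third. Leaving out 1 library gave 0 to 5, 0 to 4 and 0 to 12 genes, and 0 to 2, 0 to 1 and 0 to 2 of 10 members at an unadjusted p under 0.05, where 5.45 to 12.5%, 2.13 to 5.26% and 4.90 to 9.79% of all tested genes were. Without Dot1l(fl/+) replicates 1 and 3 together, chosen after seeing Pmch and Hcrt, 247, 4 and 189 genes and 0 members in Dot1l(fl/+) against Dot1l(+/+) were past their thresholds; the 1 library left is then assumed to vary like the others. The length and GC offset left 0 members at an unadjusted p under 0.05 in Dot1l(fl/+) against Dot1l(+/+), where Ppargc1a had been. Between the Dot1l(+/+) means alone, the ratio of the highest to the lowest member level was 6.84 per kb of all exons (Ppargc1a over Nrf1). Per kb of the longest transcript it was 7.52 (Esrra over Ppargc1b). The cause of these moves was not tested.

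The methods say that sets of the 3 genotypes from the same nest were paired and pooled, but no label says that a replicate number marks such a set. Deviations of same-numbered libraries correlated at 0.02 to 0.32 (median 0.14, all 9 pairs above 0, all 3 of number 3 under 0.1), against a median of -0.11 between numbers, and 7 of 9 libraries correlated best with their own number. A block for the replicate number gave 0, 3 and 3 genes called, and with the length and GC offset 0, 3 and 4; the counts of members at an unadjusted p under 0.05 were 1, 0 and 1 of 10 with the block (9.34%, 4.43% and 7.12% of all tested genes) and 0, 0 and 1 with both (7.66%, 4.31% and 6.32%). Depth limits Tfb2m and Ppargc1b most, at 124 to 269 reads per library.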

Other observations

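Relatives and partners of the members were read per length in the same libraries. Esrrg, the relative of Esrra that is known from neurons, was at 16.3 ± 1.3 CPM per kb of exon (SD over 9 libraries), above Esrra in every library by 1.04 to 1.74-fold, an order that did not hold per kb of the longest transcript (0.682 to 1.14-fold), while Esrrb was at 1.83 ± 0.17. The subunits that GABP needs beside Gabpa were lower per length than Gabpa, with Gabpb1 at 2.40 ± 0.18 and Gabpb2 at 2.92 ± 0.28 CPM per kb against 7.25 ± 0.50. Polg2, the accessory subunit of polymerase gamma, was at 0.836 ± 0.11 CPM per kb, and Polg was 6.43 to 10.2-fold above it in single libraries. Tfb1m, the ribosomal RNA methyltransferase related to Tfb2m, was at 1.54 ± 0.14 CPM per kb, with Tfb2m 1.49 to 1.98-fold above it. The orders of Gabpa, Polg and Tfb2m over these genes held in all 9 libraries per kb of the longest transcript too, but Gabpa was then at 8.26 CPM per kb against 4.48 for Gabpb1 and 5.21 for Gabpb2, and Tfb2m was 1.15 to 1.52-fold above Tfb1m.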
